A study of Mus musculus with 6 samples.

Results

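The proteasome genes of the mouse testis were chosen by name. All genes whose symbol began with Psma, Psmb, Psmc or Psmd followed by a digit were taken, which gave 40 of the 32285 genes in the count tables. One of them, Psmc3ip, encodes a partner of the meiotic recombination machinery and no proteasome subunit, so 39 genes are described as proteasome genes. They comprised 8 subunits of the alpha ring (Psma1 to Psma8), 7 constitutive subunits of the beta ring (Psmb1 to Psmb7), 4 inducible or tissue-restricted beta subunits (Psmb8 to Psmb11), 6 ATPases of the regulatory particle (Psmc1 to Psmc6), 11 of its non-ATPase subunits and 3 chaperones of its assembly that carry Psmd names (Psmd5, Psmd9 and Psmd10).

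The proteasome is the large protease that degrades proteins tagged with ubiquitin. Its core is a barrel of stacked rings, in which the outer alpha rings gate the entry and the inner beta rings hold the proteolytic sites of Psmb5, Psmb6 and Psmb7. The regulatory particle caps the barrel, binds ubiquitin, and unfolds and feeds in the substrate through its ring of ATPases. Immune cells replace the catalytic subunits with Psmb8, Psmb9 and Psmb10, and the thymic cortex uses Psmb11. Male germ cells make a further alpha subunit, Psma8, which takes the place of Psma7 in a form of the complex that spermatocytes need to complete meiosis.

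Testes of 8-week-old wildtype mice, C57BL/6 by the labels and C57BL/6N by the study's methods, were dissociated to single cells after 2 weeks on a high-fat (HFD) or a low-fat diet (LFD) and sequenced on the 10x Genomics droplet platform. The labels gave 3 libraries per diet, and the study's methods gave 3 mice per diet. Unique molecular identifiers (UMIs), each standing for 1 captured RNA molecule, were counted near the 3-prime end of transcripts. Levels are therefore given as CPM, the UMIs of a gene per 1000000 UMIs of the same class and library, and were not divided by transcript length. P-values by diet measured the spread between libraries. Those between germ cell classes measured how the differences between classes varied from library to library, with the library as a term.

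Before any result, 3 features of the libraries had to be stated. The names of the deposited files gave the opposite diet to the labels for all 6 libraries. The study's own list of cell numbers matched the file names and not the labels. Groups were nevertheless taken from the labels, and the libraries are called "labelled HFD" or "labelled LFD". If the file names are right, each diet difference changes sign, while its p-value and the counts of genes stay as they are. The libraries labelled HFD replicate 1 and LFD replicate 1 stood apart from the other 4, with haemoglobin transcripts at 0.0209 and 0 CPM against 30.5 to 99.7 CPM. Finally, 284 barcode sequences occurred in more than 1 library. The libraries held 39196921 to 95845514 UMIs in 5753 to 11095 barcodes, 48939 barcodes in all, with a median of 2155 to 3422 UMIs per barcode, and the 39 proteasome genes gave 2500708 of the 429495465 UMIs.

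Cell classes were set by marker genes after clustering, with the proteasome genes and the pathway genes named further on left out of the clustering. Genes that vary together with them still shaped the clusters. Along the germ line, 6 classes were named: spermatogonia- and early spermatocyte-like (1691 barcodes), early to pachytene spermatocyte-like (1098), pachytene to dividing spermatocyte-like (1189), round spermatid-like (2603), round to elongating spermatid-like (1463) and elongating spermatid-like (2667). Sertoli-like (748) and macrophage-like (274) barcodes were the somatic classes with enough barcodes in every library to be tested. The macrophage-like cluster also held T cell markers such as Cd3g and Nkg7. A peritubular, stromal and Leydig-like class of 168 barcodes and a spermatogonia-like class of 250 barcodes were too small in some libraries for a test. The named classes held 24.8% of the barcodes and 72.7% of the UMIs. The other 36788 barcodes stayed unnamed. They were shallower, with a median depth of 2408.5 UMIs where named barcodes had 18594. RNA outside cells reached every class: the spermatid gene Prm1 gave UMIs in 100% of macrophage-like barcodes.

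Promoters of the proteasome genes were read for known elements, since Nfe2l1 and Nfe2l2, whose levels are given further on, are known to act on proteasome genes through the antioxidant response element. The sequences ran from 250 bases before to 50 bases after the RefSeq start (GRCm38.p6), and 32 of the 39 genes were matched. Only the 250 bases before the start were searched, and these are the windows counted here. The letters TGACNNNGC, searched on both strands, stood in 5 of the 32 windows (15.6%) and in 10.6% of all 20267 windows. The 5 matches are printed with 30 bases each, 5′ to 3′ on the strand of the gene, and the capitals mark the element or its reverse complement.
Psmb5, chr14:54618023-54618052, minus strand: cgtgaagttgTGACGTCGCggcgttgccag
Psmb6, chr11:70525327-70525356, plus strand: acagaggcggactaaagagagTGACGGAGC
Psmc6, chr14:45329587-45329616, plus strand: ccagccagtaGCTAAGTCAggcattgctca
Psmd12, chr11:107479278-107479307, plus strand: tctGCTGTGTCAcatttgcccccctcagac
Psmd9, chr5:123228149-123228178, plus strand: atctagccggTGACCCCGCccacttccaag
The cyclic AMP response element TGACGTCA was found in 0 of the 32 windows and in 1.94% of all windows. CCAAT occurred in 13 of 32 (40.6%) against 35.3% of all, and the palindrome bound by nuclear respiratory factor 1 in 6 of 32 (18.8%) against 4.83%. All were searched on both strands. The last 6 genes were Psma2, Psma3, Psma4, Psmc4, Psmc5 and Psmd14. The matches are descriptions of these windows and not evidence of binding.

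Summed over the 39 genes, proteasome transcripts took their largest share of the RNA in spermatogonia and spermatocytes and their smallest in elongating spermatids. The share was 0.815% ± 0.0855 (SD, n = 6 libraries) of UMIs in the spermatogonia- and early spermatocyte-like class and 0.831% ± 0.0484 in the early to pachytene class, which differed by less than their spread. It was 0.666% ± 0.0342 in the pachytene to dividing class and 0.613% ± 0.0193 in round spermatid-like barcodes. In round to elongating spermatid-like barcodes the share was 0.440% ± 0.0192, and in the elongating class 0.348% ± 0.0270. The highest library of the elongating class, at 0.397%, lay below the lowest library of the round to elongating class, at 0.411%. Among somatic classes, Sertoli-like barcodes reached 0.594% ± 0.0807 and macrophage-like barcodes 0.470% ± 0.0602. The unnamed barcodes, pooled, gave 0.563%, close to the 0.582% ± 0.0199 of all barcodes together.

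**Figure D1:**
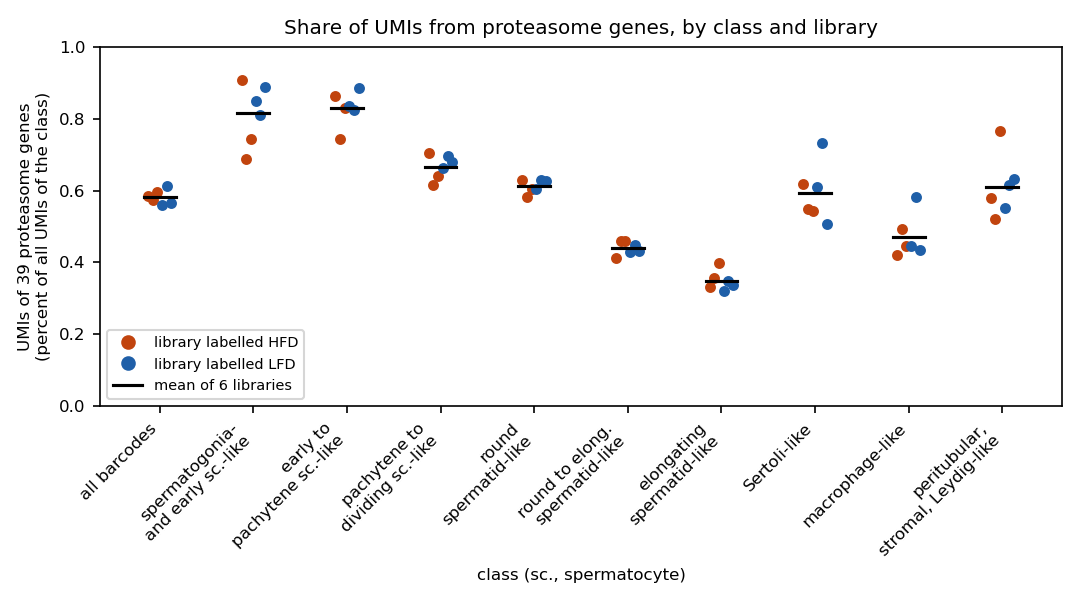
Share of UMIs from the 39 proteasome genes (vertical axis, percent of all UMIs of the class) in all barcodes and in each class (horizontal axis). Each point is 1 library, coloured by its labelled diet, and black lines are means of 6 libraries. The means fall from 0.831% in the early to pachytene spermatocyte-like class to 0.348% in the elongating class.

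Most proteasome UMIs of the elongating class came from a single gene. Psma6, an alpha ring subunit of every proteasome, gave 57.6% ± 3.71 of the proteasome UMIs there, against 2.78% in the pachytene to dividing class. Without Psma6, the share of the other 38 genes in UMIs was 0.781% in the first germ cell class, 0.80% in the early to pachytene class, 0.648% in the pachytene to dividing class, 0.531% in round spermatids, 0.305% in the round to elongating class and 0.147% ± 0.0146 in the elongating class. The proteasome genes other than Psma6 thus took a smaller share at each step after the early to pachytene class. At 2 of these steps the typical proteasome gene moved like genes in general. With library totals, the median log2 change of 37 proteasome genes was -0.48 into the pachytene to dividing class, against -0.45 for all genes. Into the elongating class it was -0.83 against -0.79.

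Most proteasome genes had their highest level early and their lowest level late. Of the 39 genes, 20 were highest in the spermatogonia- and early spermatocyte-like class, 11 in the early to pachytene class, 3 in the pachytene to dividing class (Psmc3, Psmd7 and Psmd8), 4 in round spermatids (Psmb6, Psmc2, Psmd9 and Psmd10) and 1, Psma6, in the elongating class. The lowest level was in the elongating class for 29 genes. Highest and lowest classes are those of the mean over 6 libraries, and single libraries did not always share them. Only 2 of 6 libraries had the same highest class as the mean for Psma5, Psmc5 and Psmd12, and 3 for Psmd3 and Psmd6. Psmb8, Psmb9 and Psmb11, among the 20, had only 12, 53 and 5 UMIs over the germ cell classes. The same counts were not made over all genes. Scaled by library totals, as CPM is, the median change of all genes was also below 0 at each step, from -0.24 to -0.79. The range between classes differed widely between genes. Psmd8, a subunit of the lid of the regulatory particle, varied 1.93-fold between its lowest and highest class and the ATPase Psmc2 2.87-fold, while Psma7 varied 58.1-fold, Psmd5 54.7-fold and Psma8 51.1-fold. Psmd5 and Psma7 were called lower in the early to pachytene class and again at the round spermatid step under every scaling. At the latter step the Psma7 call was lost with clusters from all variable genes (-0.13, adjusted p = 0.399) and with the marker score (-0.31, adjusted p = 0.0709), by edgeR. In UMIs over all barcodes, Psmc3, the ATPase also called Rpt5, and Psma6 were the deepest with 344662 and 340848, and Psmb11 the shallowest with 15.

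**Figure D2:**
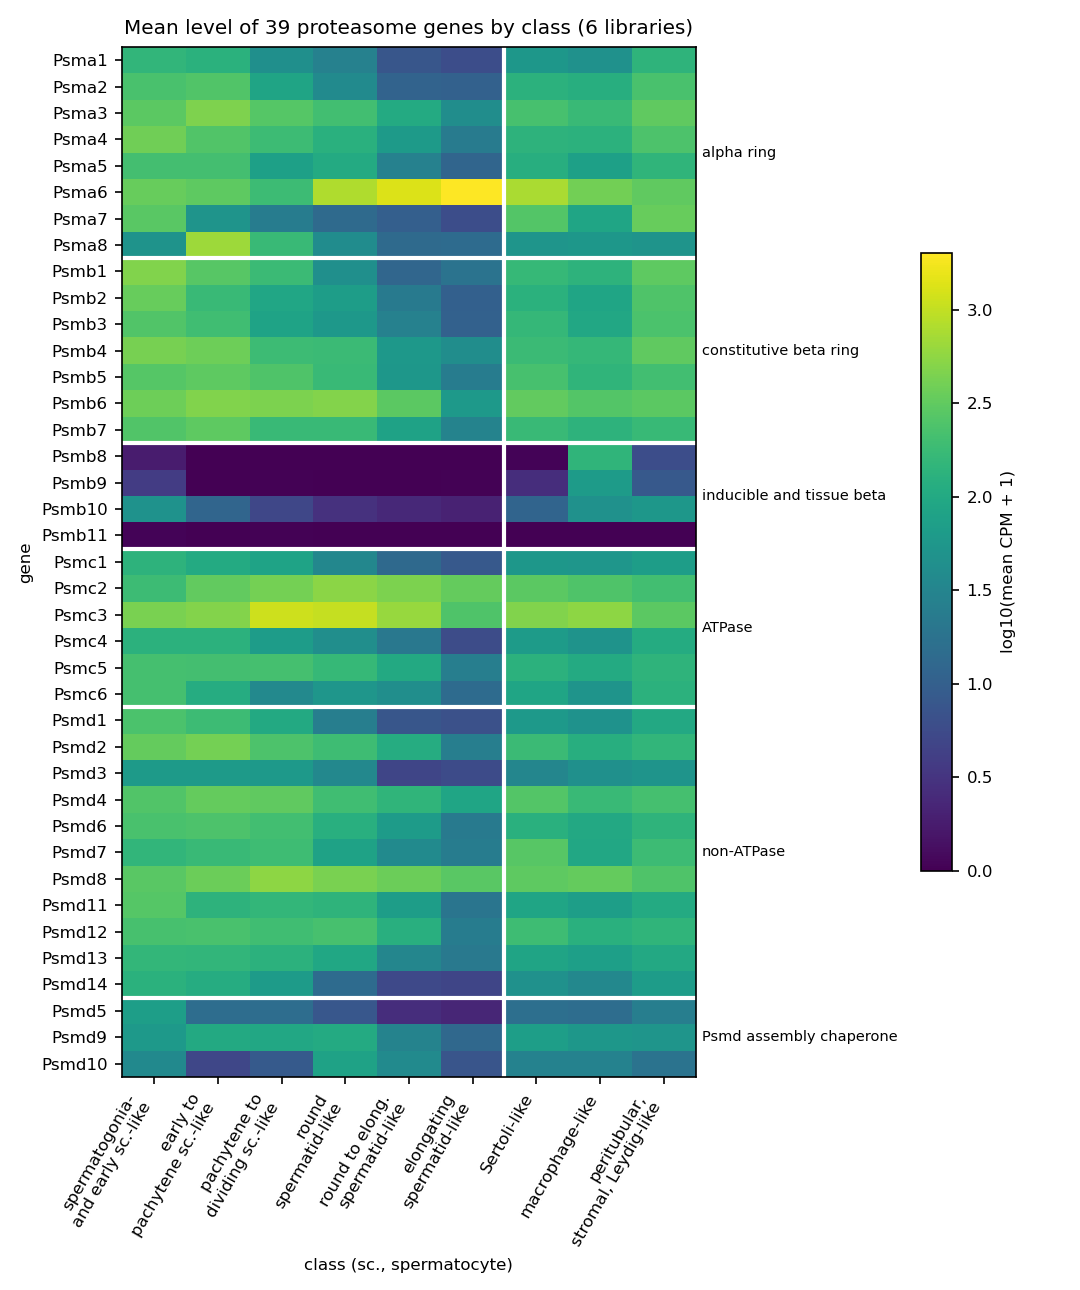
Mean level of the 39 proteasome genes (rows, grouped by role) in 9 classes (columns), as log10 of mean CPM + 1 over 6 libraries. Most rows darken from left to right across the 6 germ cell classes, Psma6 brightens towards the elongating class at 2008 CPM, and Psmb8 and Psmb9 are bright in the macrophage-like column.

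The clearest exchange was within the alpha ring, between Psma7 and its germ cell counterpart Psma8. Psma7 lies at chr2:180036374-180042433 on the minus strand and Psma8 at chr18:14706151-14762301 on the plus strand (GRCm38). Their longest open reading frames encode 248 and 250 residues with 83.6% identity, and their transcripts share no run longer than 17 bases. In the spermatogonia- and early spermatocyte-like class, Psma7 stood at 188 CPM in the lowest, 303 in the median and 381 in the highest library. In the early to pachytene class the corresponding values were 40.4, 49.9 and 64.2 CPM. Psma7 libraries of these classes did not overlap. Psma8 took the opposite course, with a lowest, median and highest library of 27.8, 52.8 and 61.5 CPM in the first class and of 597, 680 and 709 CPM in the second.

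Between these classes Psma8 rose by 4.19 ± 0.118 (SE) on the log2 scale (adjusted p = 1.01e-29, edgeR quasi-likelihood test with Benjamini-Hochberg adjustment over 17069 genes), and Psma7 fell by 2.11 ± 0.110 (adjusted p = 2.94e-21). Both directions were seen in 6 of 6 libraries, and both calls held under each of 4 scalings of the counts. As a share of the UMIs of both genes, Psma8 gave 15.8% ± 7.24 (SD, n = 6, range 6.80 to 23.8%) in the first class and 93.0% ± 1.28 in the second. After the early to pachytene class the levels of both genes were lower. Psma8 averaged 174 ± 30.4 CPM in the pachytene to dividing class, 38.9 ± 5.16 in round spermatids, 13.05 ± 3.36 in the round to elongating class and 13.3 ± 3.06 in the elongating class. Psma7 averaged 23.6 ± 4.50, 12.8 ± 2.36, 9.01 ± 0.769 and 4.97 ± 1.69 CPM in the same 4 classes. The share of Psma8 was 87.8% ± 3.24, 75.3% ± 3.56, 58.5% ± 4.71 and 72.6% ± 8.6. In the 3 spermatid classes these Psma8 levels were within or below the 17.6 to 48.5 CPM that 5 of the Sertoli-like libraries showed. Background may differ between Sertoli-like and spermatid barcodes, so this comparison cannot decide. No Psma8 expression is read from the spermatid shares.

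The exchange depended on how barcodes were placed in classes. When each barcode of at least 1000 UMIs took the class of its highest marker score, without clustering, the Psma8 change was -0.00674 (adjusted p = 0.981, edgeR), and the Psma8 share in the spermatogonia- and early spermatocyte-like class was 70.9%. Only 138 of the 1098 early to pachytene barcodes took that class by their own marker score, and 1540 of the 1691 barcodes of the first class took theirs. The early to pachytene cluster was highest for 4 of 10 early spermatocyte markers (Meiob, Sycp1, Sycp3 and Hormad1) and for 5 of 10 pachytene markers. The marker score gave 6384 barcodes to the early to pachytene class, of which 90.6% came from clusters left unnamed here, and 8679 to the first class, of which 69.7% did. Of those 8679, 17.7% came from the cluster of the first class itself. The remainder came from other named classes. The part of unnamed and of moved named barcodes in the lost Psma8 change was not tested. The Psma8 share in the unnamed clusters, pooled, was 81.6%. Of the 48939 barcodes scored, 14356 had a second list of markers within 0.25 score units of their highest one. The second list need not have been that of another class.

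Single barcodes, thinned to 2000 UMIs each to compare classes at 1 depth, gave the same order. In the early to pachytene class 66.6% of 1068 barcodes held a Psma8 UMI, 8.71% a Psma7 UMI and 5.81% both. In the first germ cell class 8.72% of 1685 barcodes held Psma8 and 32.7% Psma7. Among somatic classes, which are not known to make Psma8, it was held by 11.8% of 357 Sertoli-like, 5.76% of 243 macrophage-like and 5.49% of 164 peritubular, stromal and Leydig-like barcodes. The share in the first germ cell class lay within this range, as did the 6.96% of round spermatids. The 3.16% and 3.31% of the later spermatid classes lay below it. However, Prm1 averaged 13756 CPM in Sertoli-like barcodes against 2697 in the first germ cell class and 1177 in round spermatids. Background per UMI thus need not be equal between classes, thinned or not. The somatic range cannot settle which of these shares are background, and no expression is read from them. Thinning left out 30 barcodes of the early to pachytene class, 6 of the first germ cell class and 391 of the Sertoli-like class. Without thinning, 93.0% of early to pachytene and 32.2% of spermatogonia- and early spermatocyte-like barcodes held Psma8.

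Somatic classes held more Psma7 than Psma8 on average, though not in every library. Its mean was 259 ± 120 CPM for Sertoli-like barcodes, 85.5 ± 30.5 CPM for macrophage-like ones and 341 ± 152 CPM for the peritubular, stromal and Leydig-like barcodes. Psma8 in Sertoli-like barcodes came largely from 1 library: LFD replicate 2 stood at 163 CPM and the other 5 at 17.6 to 48.5 CPM. The summed level of the 10 pachytene markers in these barcodes was 2899 CPM in LFD replicate 2 and 1141 to 2023 CPM in the others, and its part in the Psma8 level was not tested. In macrophage-like barcodes the same library was again the highest for Psma8, at 139 CPM. The summed pachytene markers there were 2965 CPM in LFD replicate 2 and highest in HFD replicate 2, at 3199 CPM, where Psma8 stood at 71.9 CPM. The Psma8 share was 16.98% ± 17.05 in Sertoli-like barcodes (5.38 to 51.0%), 36.1% ± 17.1 in macrophage-like barcodes (13.8 to 58.3%) and 12.6% ± 8.43 in peritubular, stromal and Leydig-like ones, so Psma8 exceeded Psma7 in single libraries of the former 2 classes.

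**Figure D3:**
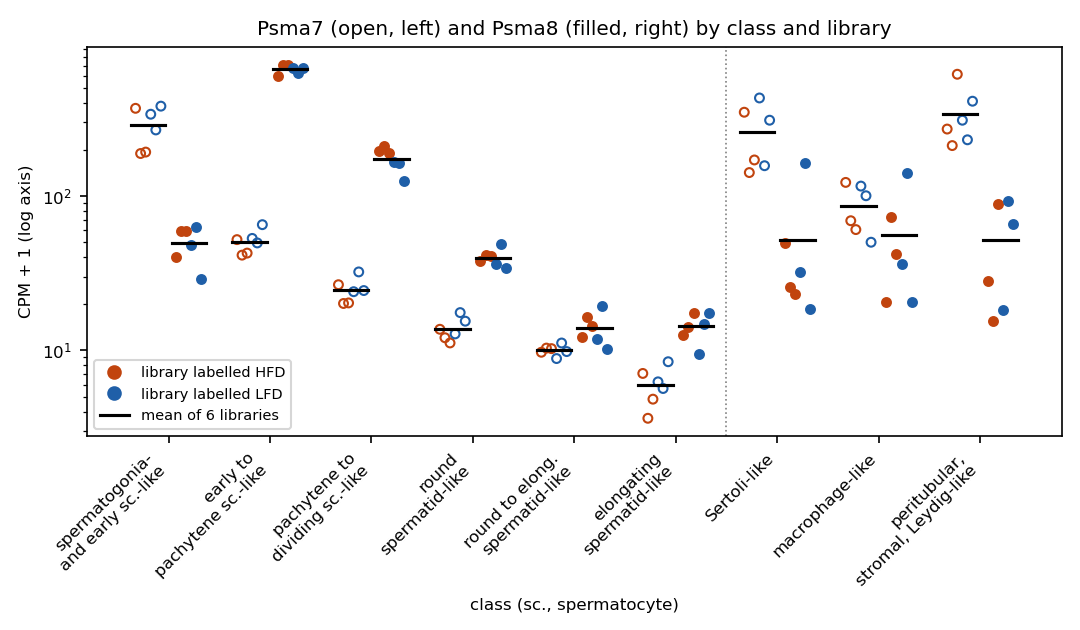
Psma7 (open points) and Psma8 (filled points) in each class (horizontal axis), as CPM + 1 on a log axis. Each point is 1 library, coloured by its labelled diet, and black lines are means of 6 libraries. Psma7 lies above Psma8 in the first germ cell class, at 289 against 48.8 CPM on average, and below it in the early to pachytene class, at 49.7 against 667 CPM.

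Genes that followed Psma8 over the 36 sums of 6 germ cell classes in 6 libraries are given as a description. By Pearson's r of log2(CPM + 1) among 17571 genes, the 5 nearest were Ttc30a1 (r = 0.991), the testis-specific linker histone gene Hist1h1t (0.985), the unnamed transcript 9330102E08Rik (0.985), the ceramide synthase gene Cers3 (0.983) and Wdr17 (0.980). Hist1h1t, for example, averaged 21.9 CPM in the first class, 215 in the early to pachytene class and 68.3 in the pachytene to dividing class. The points share their libraries and classes. Ttc30a1 has close copies in the genome, so its counts are uncertain. Psmc3ip, which the naming rule also caught, averaged 144 CPM in the first class and 524 in the early to pachytene class and rose by 2.28 ± 0.0922 (adjusted p = 6.67e-25, edgeR).

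The constitutive catalytic subunits were lowest in elongating spermatids. Psmb5, which carries the chymotrypsin-like site, averaged 268 ± 67.9, 304 ± 38.9, 244 ± 32.0, 172 ± 21.9, 55.8 ± 6.62 and 23.1 ± 4.90 CPM in the 6 germ cell classes in order. Psmb6, with the caspase-like site, averaged 369 ± 88.5, 468 ± 90.4, 451 ± 81.4, 488 ± 71.9, 296 ± 29.1 and 59.3 ± 10.5 CPM, and so was still high in round spermatids. Psmb7, with the trypsin-like site, averaged 254 ± 32.2, 306 ± 30.7, 172 ± 7.08, 173 ± 4.14, 77.8 ± 8.04 and 29.3 ± 6.48 CPM. In Sertoli-like barcodes the averages were 218 CPM for Psmb5, 326 for Psmb6 and 171 for Psmb7, and in macrophage-like barcodes 145, 265 and 136 CPM.

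Of their inducible counterparts, Psmb8 and Psmb9 were highest in the macrophage-like class. Psmb8 (chr17:34197721-34201454, plus strand) stood at 194, 53.0 and 119 CPM in macrophage-like barcodes of the libraries labelled HFD and at 150, 99.4 and 246 CPM in those labelled LFD, from 157 UMIs in all. The 5 germ cell classes from early to pachytene spermatocytes on held 0 Psmb8 UMIs. With 3 counts over a class as the floor, Psmb8 in the macrophage-like class was at least 1134-fold higher than in the early to pachytene class and at least 4032-fold higher than in round spermatids, the classes with the lowest and highest bound. These bounds cover counting error only. Psmb9 (chr17:34181987-34187764, minus strand), the neighbour of Psmb8, stood at 87.5, 41.6 and 82.5 CPM and at 88.4, 39.8 and 39.3 CPM in the same libraries, from 75 UMIs. It gave 0 UMIs in the early to pachytene class, against which its macrophage-like level was at least 542-fold higher.

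The remaining inducible subunit was not confined to macrophages. Psmb10 averaged 46.4 ± 27.0 CPM in macrophage-like barcodes, 46.8 ± 21.6 in the spermatogonia- and early spermatocyte-like class and 54.8 ± 39.1 among peritubular, stromal and Leydig-like barcodes. It averaged 10.7 ± 5.63 CPM in Sertoli-like barcodes and then 11.03, 4.10, 1.93, 1.38 and 1.05 CPM along the later germ cell classes. Psmb9 was also seen at a low level in the first germ cell class, with 2.88 ± 1.39 CPM from 49 UMIs, at least 26.7-fold higher than in the early to pachytene class. Psmb8 had 12 UMIs there. Peritubular, stromal and Leydig-like barcodes held 9 Psmb8 and 8 Psmb9 UMIs, on average 5.09 and 7.39 CPM, and Sertoli-like barcodes held 1 and 4. Psmb11, the thymic subunit, gave 15 UMIs in all barcodes and 0 in macrophage-like ones. In barcodes thinned to 2000 UMIs, Psmb8 was detected in 27.98% of 243 macrophage-like barcodes (44.4% without thinning) and in 0 of 357 Sertoli-like barcodes. The median depth was 3378 UMIs in the macrophage-like and 1949.5 in the Sertoli-like class.

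**Figure D4:**
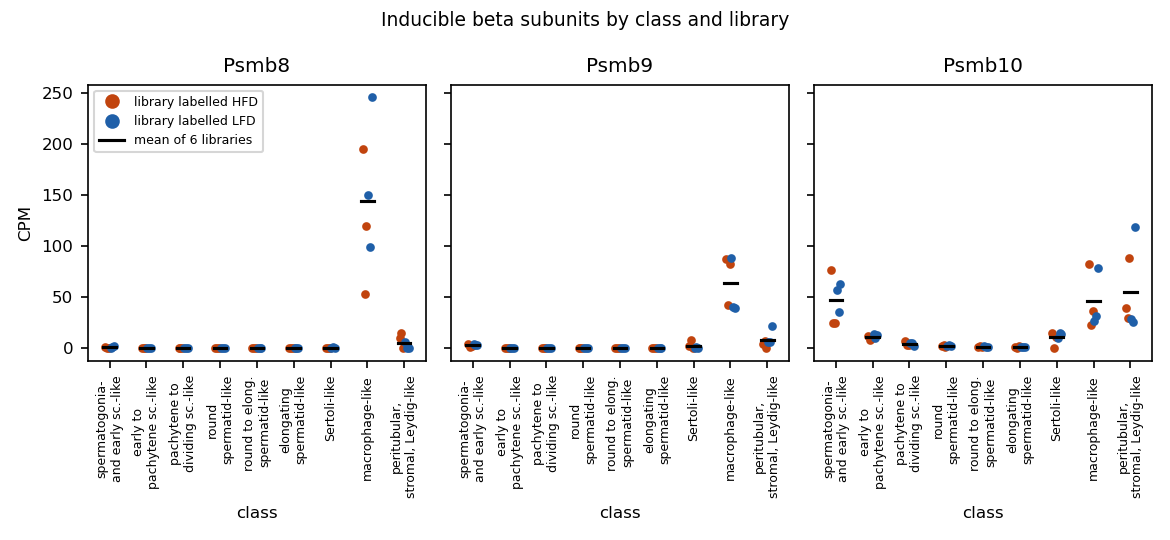
Levels of Psmb8, Psmb9 and Psmb10 (panels) in each class (horizontal axis), in CPM on linear axes of the same scale. Each point is 1 library, coloured by its labelled diet, and black lines are means of 6 libraries. Psmb8 and Psmb9 are high in the macrophage-like class, at 144 and 63.2 CPM on average, while Psmb10 is also present in the first germ cell class at 46.8 CPM.

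Neighbouring germ cell classes were compared in 1 fit over all 6 classes with the library as a term, which tested 37 of the 39 genes (Psmb8 and Psmb11 were too low). Psmb9 passed the filter on low counts through the first class alone. The scaling of the counts mattered, because the classes differ strongly in composition. At the first step, the median change of all 17069 genes was -0.03 with edgeR's TMM factors, the main choice, and -0.61 with relative log expression factors (RLE). A gene is therefore described as higher or lower here where it was called in that direction with TMM, RLE, DESeq2's own fit and library totals alone, and the TMM counts stand beside. Genes called by TMM alone are given with values only. Log2 changes at the steps are those with TMM unless stated, while CPM follows library totals. A change and the CPM beside it can therefore differ in size.

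From spermatogonia and early spermatocytes to the early to pachytene class, 8 proteasome genes were higher (21.6% of those tested, against 20.9% of all genes) and 9 were lower (24.3% against 34.2%). One of the 9, Psmb9, was tested only because of its level in the first class, so it had to be lower and adds nothing to the count. The 8 were Psma3, Psma8, Psmb6, Psmc2, Psmd2, Psmd4, Psmd8 and Psmd9, and the 9 were Psma7, Psmb1, Psmb2, Psmb9, Psmb10, Psmc6, Psmd5, Psmd10 and Psmd11. With TMM the counts were 23 higher and 9 lower (34.1% and 34.5% of all genes), with RLE 8 and 19. The median change of the 37 genes was 0.41 above that of all genes with TMM, 0.28 above it with DESeq2 and 0.0780 above it with classes from the marker score. Besides Psma8, the largest rises were of the ATPase Psmc2, by 1.24 ± 0.0771 (adjusted p = 1.14e-18), and the ATPase chaperone Psmd9, by 1.13 ± 0.0905 (adjusted p = 5.12e-15), all by edgeR. Psmd10, the ATPase chaperone also known as gankyrin, fell by 3.01 ± 0.208 on the log2 scale (adjusted p = 3.99e-17, edgeR), from 36.5 to 4.01 CPM, in 6 of 6 libraries.

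From the early to pachytene to the pachytene to dividing class, most core genes were lower and the regulatory particle was mixed. Lower were 18 genes (48.6%, against 35.8% of all genes), among them 7 of 8 alpha ring and 5 of 7 constitutive beta ring genes, and higher were 5 (13.5% against 25.4%), Psmc2, Psmc3, Psmd8, Psmd10 and Psmd11. Of the regulatory particle, 5 genes were lower, Psmc4, Psmc6, Psmd1, Psmd2 and Psmd14. The median change of the 37 genes was -0.06, as was that of all genes. With TMM 14 were higher and 18 lower (35.7% and 35.9% of all genes), and with RLE 5 and 24. Psmc3 rose by 1.59 ± 0.0823 (adjusted p = 2.18e-21, edgeR), from 492 to 1115 CPM, Psmd10 by 1.45 ± 0.225 (adjusted p = 2.19e-07) and Psmd8 by 1.01 ± 0.0768 (adjusted p = 1.04e-15). On the log2 scale Psma8 fell by 1.52 ± 0.100 (adjusted p = 8.58e-18), the alpha ring gene Psma2 fell by 1.20 ± 0.110 (adjusted p = 3.23e-13) and the ATPase gene Psmc6 fell by 1.20 ± 0.0912 (adjusted p = 9.05e-16), by edgeR in each case. With classes from the marker score, the change of Psmd8 was 0.0360 (adjusted p = 0.794) and that of Psmc6 -0.0394 (adjusted p = 0.955), by edgeR. AW209491 overlaps Psma2 on the same strand, so Psma2 counts are uncertain.

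At the next step, from dividing spermatocytes to round spermatids, 19 genes were lower (51.4%, against 35.1% of all genes), including 7 of 11 non-ATPase and 5 of 8 alpha ring genes. The 5 higher genes (13.5% against 33.8%) were Psma5, Psma6, Psmc2, Psmc6 and Psmd10. With TMM 10 were higher and 20 lower (38.3% and 38.4% of all genes), with RLE 12 and 19 and with library totals 5 and 25. Psmd10 rose by 3.75 ± 0.139 (adjusted p = 4.22e-27, edgeR), from 7.66 to 79.4 CPM. It is the only one of the 39 genes on the X chromosome, most of which is known to be silenced in pachytene spermatocytes. Psma6 rose by 2.39 ± 0.0943 (adjusted p = 3.53e-26), from 185 to 820 CPM, and Psmc6 by 0.87 ± 0.0878 (adjusted p = 4.13e-12), both by edgeR. On the log2 scale Psmd14, the deubiquitinase of the lid, fell by 1.99 ± 0.0891 (adjusted p = 3.73e-24), Psma8 fell by 1.92 ± 0.103 (adjusted p = 3.07e-21) and the beta ring gene Psmb1 fell by 1.81 ± 0.113 (adjusted p = 5.26e-19), by edgeR.

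The broadest change came from round to round to elongating spermatids, where 27 of 37 genes were lower (73.0%, against 30.2% of all genes) and Psma6 was the only one higher (2.70% against 25.4%). The lower genes included 9 of 11 non-ATPase, 6 of 7 constitutive beta ring, 6 of 8 alpha ring and 3 of 6 ATPase genes and all 3 chaperones. With TMM 1 was higher and 29 were lower (30.9% and 39.5% of all genes), with RLE 4 and 27 and with library totals 1 and 34. The median change of the 37 genes was 0.52 below that of all genes with TMM (-0.72 against -0.20), and 30 of them lay below the median of all genes. On the log2 scale Psmd3, a scaffold of the lid, fell by 2.73 ± 0.109 (adjusted p = 1.21e-25), Psma1 fell by 1.70 ± 0.123 (adjusted p = 1.55e-16) and Psmd5 fell by 1.70 ± 0.172 (adjusted p = 5.39e-12), the largest falls by edgeR. Psma6 rose by 1.09 ± 0.0902 (adjusted p = 1.04e-14, edgeR) in 6 of 6 libraries.

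In the last step, to elongating spermatids, 14 genes were lower (37.8%, against 23.9% of all genes), among them 4 of 6 ATPase genes, and Psma6 and Psmb1 were higher (5.41% against 10.1%). With TMM 11 were higher and 18 lower (29.2% and 32.6% of all genes), with RLE 15 and 14 and with library totals 2 and 27, so the balance of the step rested on the scaling. Psma6 rose by 1.35 ± 0.0908 (adjusted p = 2.69e-17, edgeR), to 1798 CPM in the lowest, 1949 in the median and 2410 in the highest library. Over the 4 scalings its change ran from 0.57 to 1.69. Psmb1 rose by 1.39 ± 0.150 with TMM (adjusted p = 4.78e-11, edgeR), from 11.2 to 17.1 CPM. The CPM rise is smaller, since the median change of all genes was 0.03 with TMM and -0.79 with library totals. Psmd3 had a change of 0.97 ± 0.161 with TMM (adjusted p = 1.08e-06) and of 0.11 with library totals, where it was not called. Psmd10 fell by 1.71 ± 0.167 on the log2 scale (adjusted p = 3.02e-12), the lid gene Psmd12 by 1.56 ± 0.0991 (adjusted p = 3.71e-18) and Psmb6 by 1.54 ± 0.0883 (adjusted p = 1.20e-19), by edgeR. Gm11722 overlaps Psmd12 on the same strand, so its counts are uncertain. The elongating class held 2 clusters, 1 of them with 17 barcodes in HFD replicate 2.

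Genes around the proteasome, 32 in all, were taken from a list of activators, further parts of the regulatory particle, assembly factors, regulators, and ubiquitin and delivery genes. Under all 4 scalings, 5 were higher and 14 lower at the first step, 4 and 19 at the second, 9 and 14 at the third, 5 and 14 at the fourth and 6 and 8 at the last. With TMM the counts were 14 and 14, 8 and 19, 12 and 14, 7 and 16, and 14 and 9. The shares of all genes called at each step are those given above, and 37.8 to 73.0% of the proteasome genes were lower at the 4 later steps.

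Activators and the inhibitor moved in different directions. Psme1 and Psme2, the subunits of the interferon-induced activator ring, were lower at the first step. Psme1 fell by 5.13 on the log2 scale, from 109 to 2.36 CPM, and Psme2 fell by 4.39, from 100.4 to 3.61 CPM. Psme2 fell again by 1.79 in the pachytene to dividing class and Psme1 by 1.24 in the round to elongating class. At the last step Psme1 rose by 2.65, though only from 0.276 to 0.867 CPM (16 and 38 UMIs), and Psme2 had a change of 1.56 with TMM that was not called under every scaling. Psme3, which encodes the nuclear activator ring, rose by 3.21 in the round to elongating class, from 15.3 to 109 CPM. Psmf1, the gene of the core inhibitor PI31, rose by 1.52 in round spermatids, by 2.00 in the round to elongating class and by 1.59 in the elongating class, where it reached 1093 CPM.

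Of 6 further parts of the regulatory particle, 4 were lower under all 4 scalings in round spermatids, 4 in the round to elongating and 2 in the elongating class, and of 5 assembly factors 4, 3 and 1. Usp14, a deubiquitinase of the regulatory particle, fell by 1.06 at the first step, its partner Uchl5 by 1.86 in the round to elongating class, and the thioredoxin-like Txnl1 by 1.39 at the first step. Ecpas, a proteasome adaptor, fell by 1.11 in the pachytene to dividing class. Sem1, the smallest lid subunit, rose by 1.16 in round spermatids and fell by 1.19 and 1.08 at the later 2 steps. Of the assembly chaperones, Psmg3 fell by 1.16 in the pachytene to dividing class and by 3.39 in round spermatids, and had a change of 1.10 with TMM at the last step. Psmg2 rose by 1.21 at the first step and 1.24 in round spermatids and fell by 2.25 in the elongating class. Pomp, which matures the core, fell by 2.39 in round spermatids, from 154 to 25.1 CPM, and rose by 1.37 in the elongating class.

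Among regulators, Nfe2l1, the factor that restores proteasome genes when the protease is inhibited, fell by 1.17 at the first step and by 1.36 in round spermatids, to 3.85 CPM. Its activating protease Ddi2 fell by 1.03 in the pachytene to dividing class and by 2.29 in round spermatids. Nfe2l2 fell by 5.12 at the first step, from 43.1 to 1.505 CPM, rose by 4.28 in round spermatids and fell by 2.63 in the elongating class. Akirin2, which brings proteasomes into the nucleus, rose by 2.17 in the pachytene to dividing class, from 184 to 621 CPM. Of the 5 genes whose promoters held the letters of an antioxidant response element, Psmb6 and Psmd9 were higher at the first step under every scaling. Psmc6 was lower, and Psmb5 and Psmd12 were not called in 1 direction under every scaling. A part of the element or of these regulators in such changes was not tested.

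Of the ubiquitin genes, Ubb rose by 1.76 at the first step to 6052 CPM. Rps27a, a fusion of ubiquitin and a ribosomal protein, fell by 2.08 in round spermatids and by 1.41 in the round to elongating class and rose by 1.48 in the elongating class. The ubiquitin-activating enzyme Uba1 fell by 4.72 at the first step, from 84.9 to 2.39 CPM, and rose by 3.82 in round spermatids and 2.05 in the round to elongating class. Its relative Uba6 fell by 1.83 and 2.29 at the first and second steps.

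Delivery factors differed in course as well. Rad23b rose by 1.07 in the pachytene to dividing class. Ubqln2 averaged 12.1 CPM in the first class and 0.215 and 0.0363 CPM in the next 2, from 202, 8 and 3 UMIs, and was tested only because of its level in the first class. Ubqln1 rose by 1.12 at the second and fell by 1.83 at the last step, and Ubqln4 fell by 1.11 at the last. Vcp, the unfolding ATPase that hands substrates to the proteasome, fell by 2.37 in the round to elongating class. Uba1 and Ubqln2 are X-linked, as is Psmd10. All pathway calls named here as risen or fallen had adjusted p-values under 0.05 by edgeR under each scaling.

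The study's own comparison was between diets. For the proteasome genes it gave no call. In the whole testis 0 of the 38 genes tested passed an adjusted p of 0.05 (0% of 20727 genes by edgeR, and 0 genes by DESeq2), and at an unadjusted p under 0.05 there were 3 proteasome genes among 471 genes (444 by DESeq2). In whole-testis sums, fewer cells of a type and less RNA per cell cannot be told apart. One of the 38, Psmc3, did not overlap between the diets, against 6.68% of all genes. The median change of the 38 genes was 0.08 (HFD minus LFD, log2), that of all genes 0.02, and the single changes ran from -0.32 to 0.53.

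The 3 smallest p-values belonged to Psma1, Psmd14 and Psma8. Psma1, an alpha ring gene, stood at 39.2, 50.2 and 50.03 CPM under the HFD label and at 35.4, 41.9 and 31.9 CPM under the LFD label, a change of 0.41 ± 0.159 (adjusted p = 0.986, edgeR). Psmd14 stood at 35.1, 40.7 and 44.4 against 31.9, 36.4 and 24.9 CPM, a change of 0.42 ± 0.175 (adjusted p = 0.986, edgeR). Psma8 stood at 102, 152 and 145 against 102, 118 and 66.6 CPM, a change of 0.53 ± 0.223 (adjusted p = 0.986, edgeR). The groups overlapped for all 3 genes. The Psma8 share of Psma7 and Psma8 UMIs in the whole testis was 81.1% ± 7.87 under the HFD label and 70.7% ± 5.12 under the LFD label (SD, n = 3 each). The difference was -1.04 percentage points between the replicate 1 libraries and 16.1 between the means of the other 4. Barcodes of the early to pachytene class, where Psma8 was highest, numbered 30 to 252 per library, and their part in these shares was not tested.

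**Figure D5:**
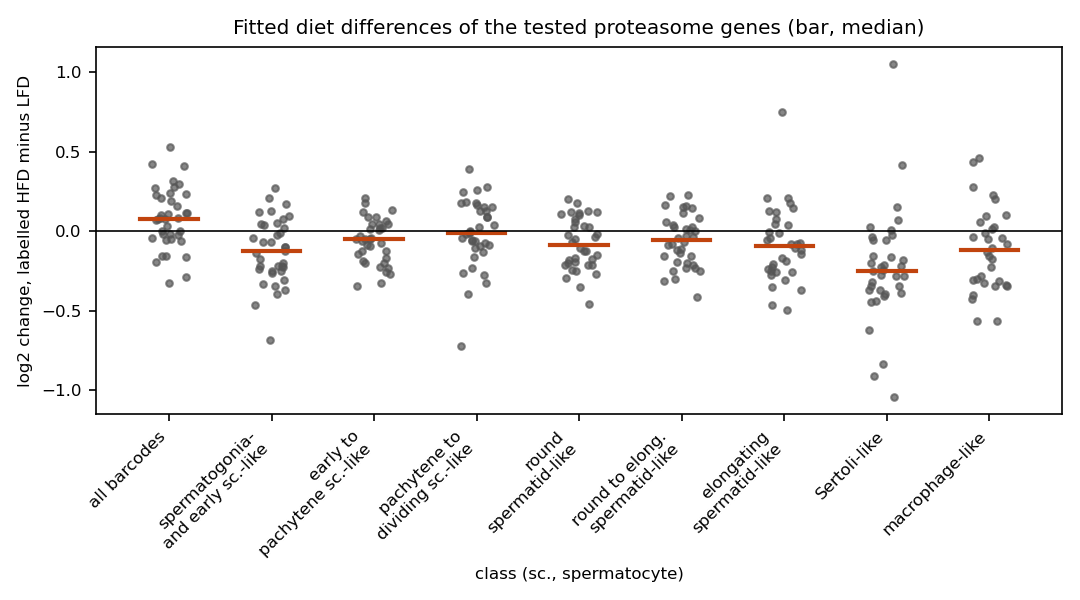
Change of each tested proteasome gene between the libraries labelled HFD and LFD (vertical axis, log2, HFD minus LFD) in all barcodes and in each tested class (horizontal axis). Each point is 1 gene and bars are medians over the genes. No gene passed an adjusted p of 0.05, and the spread is widest in the Sertoli-like class, from -1.04 to 1.05.

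Within classes, too, 0 proteasome genes were called, of 32 to 37 tested in each. The background was 0% of 12315 genes in the spermatogonia- and early spermatocyte-like class, 0% of 11457 in the early to pachytene class, 0.0235% of 12780 (3 genes, and 189 by DESeq2) in the pachytene to dividing class, 0% of 13978 in round spermatids, 0% of 12472 in the round to elongating class, 0% of 8313 in the elongating class, 0% of 8437 in Sertoli-like and 0% of 3710 in macrophage-like barcodes. DESeq2 called 0 genes in the other 7 classes. At an unadjusted p under 0.05, proteasome genes numbered 5 in the pachytene to dividing class (1956 of all genes), 1 each in round spermatids, the elongating and the Sertoli-like class, and 0 in the others.

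Within classes most estimates were below 0, unlike in the whole testis, and this was not tested. The median change of the tested proteasome genes was below 0 in all 8 classes, from -0.01 in the pachytene to dividing class to -0.25 in the Sertoli-like class, where 6 genes had an estimate above and 30 below 0. The median of all genes was 0.02 and -0.06 in the same classes. Proteasome genes whose libraries did not overlap between the diets numbered 2 of 37 in the first germ cell class (7.22% of all genes), 6 of 36 in the early to pachytene class (8.93%), 8 of 36 in the pachytene to dividing class (21.0%) and 5 of 36 in round spermatids (9.88%). They numbered 9 of 36 in the round to elongating class (8.61% of all genes), 2 of 34 in the elongating class (6.86%), 5 of 36 in the Sertoli-like class (7.83%) and 4 of 32 in the macrophage-like class (3.99%).

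In the pachytene to dividing class the 3 smallest p-values were those of Psma8, Psmd3 and Psmd10. Psma8 stood at 194, 210 and 188 CPM under the HFD label and at 165, 163 and 124 CPM under the LFD label, groups that did not overlap, as in 21.0% of all genes of this class, with a change of 0.39 ± 0.126 (adjusted p = 0.169, edgeR). Psmd3 stood at 60.7, 43.8 and 51.3 against 59.8, 69.8 and 78.0 CPM, a change of -0.39 ± 0.147 (adjusted p = 0.221, edgeR). Psmd10 stood at 6.42, 5.52 and 4.79 against 5.69, 9.61 and 13.9 CPM, a change of -0.72 ± 0.271 (adjusted p = 0.223, edgeR). The groups of the latter 2 genes overlapped through the replicate 1 libraries.

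In the other classes the smallest p-values were further from a call than in the pachytene to dividing class. In Sertoli-like barcodes Psma6 stood at 734, 1285 and 1066 CPM under the HFD label and at 585, 576 and 341 CPM under the LFD label, a change of 1.05 ± 0.358 (adjusted p = 0.944, edgeR), followed by Psmd13 with -0.83 and Psma8 with -1.04. In elongating spermatids Psma1 stood at 6.28, 6.30 and 6.17 against 2.86, 5.17 and 3.43 CPM, a change of 0.75 ± 0.322 (adjusted p = 1.00, edgeR), ahead of Psmb1 with -0.47 and Psmb6 with -0.25. In round spermatids Psmd5 stood at 5.53, 5.49 and 6.81 against 7.18, 9.35 and 7.52 CPM, a change of -0.46 ± 0.163 (adjusted p = 0.763, edgeR), ahead of Psma7 with -0.35 and Psmc5 with -0.21. The first 3 genes in the remaining classes were Psmc3 (-0.31), Psmd4 (-0.34) and Psmc6 (0.27) in the first germ cell class, Psmc3 (-0.20), Psmc5 (-0.23) and Psma7 (-0.27) in the early to pachytene class, Psmb3 (-0.30), Psmb5 (-0.25) and Psmd7 (-0.23) in the round to elongating class, and Psmb4 (-0.56), Psma3 (0.46) and Psmb6 (-0.40) in macrophage-like barcodes. In these 4 classes the adjusted p-values were 0.943 to 1.00 by edgeR.

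Proteasome genes were called within germ cell classes other than the elongating class once replicate 1 libraries were left out. Without HFD replicate 1, edgeR called 6 as lower in the libraries labelled HFD in the first germ cell class, namely Psma7, Psmb3, Psmb5, Psmb6, Psmb10 and Psmd4. These were 16.7% of those tested, against 4.84% of all genes called in either direction. In the same setting 2 were lower in the early to pachytene class (5.56% of those tested, against 1.64% of all genes), Psmb3 and Psmb6. In the pachytene to dividing class 5 were called (13.9%, against 9.44% of all genes), with Psma8 higher and Psmb3, Psmb6, Psmc3 and Psmd3 lower. In the round to elongating class 2 were called (5.56%, against 7.37% of all genes), Psmb6 and Psmc3, both lower. In round spermatids 10 of 36 were lower (27.8%, against 8.33% of all genes), including Psmb3, Psmb5, Psmb6, Psmc3 and Psmc5.

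With both replicate 1 libraries left out, 2 proteasome genes were called lower in the early to pachytene class (5.56% of those tested, against 1.12% of all genes). In the pachytene to dividing class 6 were called (16.7%, against 16.3% of all genes), of which Psma8 was higher and 5 were lower. In round spermatids 10 were called, all lower (27.8%, against 7.48% of all genes). In this setting 0 were called in the first germ cell class and in the round to elongating class. Without LFD replicate 1, Psmd10 was the only one called, lower in the pachytene to dividing class (2.78% of those tested, against 3.57% of all genes). In the whole testis, the elongating class, Sertoli-like and macrophage-like barcodes, 0 proteasome genes were called in any of these settings.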

How the data were processed

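Single-cell RNA-seq of mouse testis was analysed from 6 libraries, grouped by the diet in their labels (3 HFD, 3 LFD). The deposited files hold raw UMI counts per gene and barcode, which the authors made with Cell Ranger 6.0.1 on mm10. The labels name version 2 of the 3-prime kit and the study's methods a later one, so the chemistry is uncertain. The study's limits of 200 to 40000 genes per barcode removed 0 of 48939 barcodes.

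Barcodes were clustered without the listed genes (scanpy 1.11.5, 2000 variable genes, 30 components, 20 neighbours, leidenalg 0.10.2 at resolution 0.5, seed 1, Python 3.11.15, igraph 0.11.9, numpy 2.4.6, scipy 1.17.1, pandas 2.3.3), giving 21 clusters, of which 11 were named. Of the listed genes, 4 were among the variable genes. Harmony, which the study ran, was left out, so these classes are not the study's own clusters. A name needed 4 markers of a list highest in the cluster, or 3 with 2 among its top 10 genes by fold, and a second class with at least 66% as many gave a joint name. This rule was set after the clusters were seen, with 3 exceptions. Cluster 10 was named pachytene to dividing although 5 division markers and 1 pachytene marker were highest in it, because Pou5f2 was among its top 10 genes. Cluster 11, with 4 elongating and 3 starting-elongation markers, was joined to the elongating class. Cluster 0, with 4 haemoglobin genes at a summed 424 CPM, was left unnamed. Doublets stayed in for the main values. As an alternative, 3356 barcodes (6.86%, 0.8% per 1000 barcodes) with the highest doublet scores were left out.

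UMI counts were summed per class and library and tested with edgeR 4.0.16 (R 4.3.3; quasi-likelihood, TMM, default filter on low counts, two-sided, Benjamini-Hochberg over all genes tested, threshold 0.05), by diet in classes with at least 20 barcodes in every library and by stage with the library as a term. DESeq2 1.42.0, RLE factors, no filter, left-out libraries, a replicate block, other clusterings and a marker score were alternatives. Shares and bounds had no test. Single-count intervals and floors (3 counts) cover counting error only. On simulated counts with 200 changed genes, edgeR recovered 79.5% at a log2 change of 1 and 100% at 2 for the whole-testis diet comparison (20727 genes), and 99.5% and 100% for round spermatids by diet (13978 genes). It also called 13 and 15 unchanged genes in the former and 17 and 20 in the latter. Changed genes were drawn only from those above a floor on mean level. Recovery at lower levels, and of changes under 1, was not simulated.

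Named with values were Psma7, Psma8 and Psmb5 to Psmb11, the 3 called genes with the largest change in each direction at each step, the 3 smallest p-values by diet where none was called, pathway genes with a called change of at least 1 (some are not reported here), and the 5 genes most like Psma8. Psmc3ip, Psmd10's chromosome and the genes called with a library left out were added after values were seen. The members and lists were chosen with earlier results of these data known.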

Additional observations from a re-analysis of the deposited data

Results flagged for a closer look

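Psmd5, a chaperone of regulatory particle assembly, had diet differences of opposite sign in 3 classes, and in each the libraries of the diets did not overlap, as was so for 21.0%, 8.93% and 9.88% of all genes in the classes in the order given. The change (log2, HFD minus LFD as labelled) was 0.26 in the pachytene to dividing class, with 15.1 ± 0.723 against 12.8 ± 1.39 CPM (SD, n = 3 each), -0.13 in the early to pachytene class, with 13.7 ± 0.187 against 14.7 ± 0.526 CPM, and -0.46 in round spermatids, with 5.95 ± 0.753 against 8.02 ± 1.17 CPM. Psmd14, the lid deubiquitinase, had a change of 0.25 in the pachytene to dividing class, with 68.4 ± 1.95 against 57.7 ± 4.01 CPM, and of -0.25 in Sertoli-like barcodes, with 41.1 ± 7.58 against 50.6 ± 1.78 CPM. The differences between classes were not tested, and none of the 5 changes passed the adjusted threshold within its class.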

How the results depend on the processing

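Over the settings tried, 397 counts and shares stayed within the replicate spread or within 1.5 times of the main value and 57 moved further. Of the values of single genes, 1032 kept their direction and call, 33 changed sign, 35 lost and 11 gained a call. The lost calls were of Psma7, Psma8, Psmb5, Psmb6, Psmb7, Psmc6, Psmd3 and Psmd8 at the steps. Values that moved are given by step, with the 5 steps numbered in germ line order, and the cause was not tested. Library totals, both replicate 1 libraries left out of the steps, and the elongating class without its second cluster were chosen after seeing the data.

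Higher and lower proteasome genes at the first step numbered 8 and 19 with RLE, 8 and 20 with DESeq2 and 11 and 16 with library totals, lower genes 16 with clusters from all variable genes, and higher genes 10 with the marker score, where Psma8 had -0.00674 and Psmb7 -0.0774. At the second step, higher genes numbered 5 with RLE, 5 with DESeq2, 7 without the filter, 5 with library totals, 7 with clusters from all variable genes, 4 with the marker score and 7 to 14 with 1 library left out. There Psmb5 changed sign, to -0.36 with RLE, -0.36 with DESeq2, -0.0811 without the filter, -0.31 with library totals, -0.0261 without high doublet scores, -0.25 with clusters from all variable genes, -0.0859 with the marker score and -0.0944 to 0.122 with 1 library left out, and Psmb6 to -0.0960 with RLE, -0.0937 with DESeq2 and -0.0513 with library totals. At the third step, 5 were higher with library totals, 11 lower with clusters from all variable genes, and 5 higher and 12 lower with the marker score.

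At the fourth step, higher genes numbered 4 with RLE, 5 with DESeq2, 3 without high doublet scores, 3 with clusters from all variable genes and 1 to 3 with 1 library left out. Psma7, not called there, changed sign, to 0.0913 with RLE, 0.0950 with DESeq2, 0.0810 without high doublet scores, 0.0818 with clusters from all variable genes, 0.23 with the marker score and -0.105 to 0.00997 with 1 library left out, and Psma8 to 0.0169 with the marker score. At the last step, 2 were higher with library totals and 6 higher and 8 lower with the marker score. Psma7 there had -0.83 with library totals, -0.38 with both replicate 1 libraries left out, -0.00395 without high doublet scores, -0.0249 without the second cluster and -0.13 to 0.20 with 1 library left out, Psma8 had -0.0383 with library totals and Psmb5 0.15 with the marker score.

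By diet, leaving out 1 library gave 0 to 6 called proteasome genes in the first germ cell class, 0 to 2 in the early to pachytene class, 0 to 5 in the pachytene to dividing class, 0 to 10 in round spermatids and 0 to 2 in the round to elongating class. With both replicate 1 libraries left out the counts were 2, 6 and 10 in the early to pachytene class, the pachytene to dividing class and round spermatids. The shares of all genes called without replicate 1 libraries stand beside the calls in the results. Psmd10 in the pachytene to dividing class changed sign to 0.0409 with clusters from all variable genes. Some uncalled changes kept their sign but varied in size with 1 library left out. In the elongating class Psmb1 ran from -0.756 to -0.0443 and Psmb6 from -0.404 to -0.132. Psmd13 in Sertoli-like barcodes ran from -1.61 to -0.600, and Psma8 in the whole testis from 0.257 to 0.695.

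The proteasome share of UMIs moved with clusters from all variable genes to 0.739% in the early to pachytene class, 0.632% in the pachytene to dividing class and 0.415% in the round to elongating class. With the marker score it was 0.666% and 0.618% in the former 2 classes, 0.577% in round spermatids, 0.416% in the round to elongating and 0.396% in the elongating class. The Psma8 share was 91.4% in the early to pachytene class with clusters from all variable genes, and 70.9%, 88.2%, 84.1%, 69.3%, 43.1% and 62.9% with the marker score in the first, early to pachytene, pachytene to dividing, round to elongating, Sertoli-like and macrophage-like classes. As a mean over barcodes it was 23.8% in the first class.

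Replicate numbers were shared between diets, but the deviations of libraries with the same number correlated at 0.487, 0.0311 and 0.262, and HFD replicate 2 correlated best with LFD replicate 3 (0.300), so the numbers were not taken as pairs. With the replicate block 0 proteasome genes were called in the whole testis and in each class (31 genes of all in the whole testis). Without the library block at the stages the counts were 22 and 7, 13 and 17, 7 and 18, 1 and 29, and 11 and 18. Few UMIs limit Psmb8 to Psmb11, and few barcodes limit the Sertoli-like and macrophage-like classes.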
